A study of Mus musculus with 6 samples.

Results

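This account covers 10 mouse genes of the Wnt pathway, listed by name: the ligands Wnt5b, Wnt10a, Wnt7b and Wnt4, the receptors Fzd1 and Fzd2, the feedback inhibitors Nkd1, Nkd2 and Axin2, and the transcription factor Lef1. Of these 10, 8 had a row among the 23449 genes of the deposited table, and all 8 passed the filter on low counts that left 13698 genes for testing. Nkd1 and Lef1 were not analysed here. Messenger RNA was sequenced from 6 cultured mammary cell lines of female FVB/N mice. The 3 lines of genotype 16IC/WT are titled 16IC_1984, 16IC_4982 and 16IC_7391 and are called 16IC 1, 16IC 2 and 16IC 3 here. The 3 lines of genotype EIC/WT are titled EIC_4026, EIC_NT and EIC_7559 and are called EIC 1, EIC 2 and EIC 3. All 6 were labelled as kept in doxycycline at 10 ug/mL, with EGF, insulin and pituitary extract in the medium, so no line shows the state without the drug. From what is known of the study, and not from the sample labels, doxycycline induces a transgene, which is the HER2 splice form HER2∆16 in 16IC and the full-length receptor in EIC. The labels say neither what NT means nor whether the lines came from separate animals, so p-values measure the spread between these 6 lines.

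Wnt ligands are secreted lipid-modified glycoproteins that bind Frizzled receptors together with LRP5 or LRP6. In the canonical branch this stops the breakdown of beta-catenin, which then acts with TCF and LEF factors on target genes, among them inhibitors such as Axin2 that dampen the signal again. Other branches, for which Wnt5a and Wnt5b are best known, act on cell polarity and movement without beta-catenin. In the mammary gland Wnt4 is a known mediator of progesterone-driven branching, and ectopic Wnt expression is a classical cause of mouse mammary tumours.

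Total counts ran from 15621563 to 16091846 in the 16IC lines and from 16742109 to 17468498 in the EIC lines. Some lines stood apart from their group. Spearman's correlation of levels across genes, a description since genes are not replicates, was 0.989 between 16IC 1 and 16IC 2, but 0.874 and 0.880 between 16IC 3 and those lines, inside the range of 0.841 to 0.885 for pairs of a 16IC and an EIC line. EIC 1 and EIC 3 reached 0.979, and EIC 2 reached 0.925 and 0.917 with them. The epithelial keratin gene Krt18 was well expressed in all 6 lines, at 563 to 1999 CPM in 16IC and 661 to 1194 CPM in EIC. The epithelial surface marker Epcam was near 0 in EIC, with 51.1 to 1345 CPM in 16IC and 0.456 to 3.79 CPM in EIC. Other luminal markers differed from it. The epithelial cadherin Cdh1 had 271 to 1054 CPM in 16IC and 56.4 to 307 CPM in EIC, and the keratin gene Krt19 had 0, 0 and 0.649 CPM in 16IC 1 to 3, against 7.70, 198 and 10.1 CPM in EIC 1 to 3. The basal marker Krt5 had at most 1 count in any line. Of the same list, Krt14 had 13.1, 1.285 and 1.10 CPM in 16IC 1 to 3, against at most 0.120 CPM in EIC. Its groups did not overlap, and it was not called (edgeR adjusted p = 0.0748). Oxtr reached 46.4 CPM in 16IC 3 and 10.3 CPM in EIC 2, and Trp63 reached 11.5 CPM in EIC 2. Mylk had 0.542 to 16.1 CPM in 16IC and 5.47 to 17.2 CPM in EIC. The summed level of 10 mesenchymal markers was 259.9, 349 and 3995 CPM in 16IC 1 to 3, against 4594, 9256 and 5413 CPM in EIC 1 to 3. That of 11 luminal markers was 6951, 6612 and 1732 CPM in 16IC 1 to 3, against 3204, 2657 and 3170 CPM in EIC 1 to 3. In the marker lists of other cell types, summed levels stayed between 0.181 and 1.10 CPM in 16IC and 0.241 and 3.82 CPM in EIC for 4 endothelial genes. For 5 leukocyte genes they were 12.5 to 19.4 CPM in 16IC and 14.7 to 47.8 CPM in EIC, of which Cd68, a lysosomal protein abundant in macrophages, gave 7.40 to 19.0 CPM in 16IC and 14.3 to 47.6 CPM in EIC. The pan-leukocyte gene Ptprc did not exceed 0.306 CPM. Csf1r of the same list had 3.73, 4.65 and 0 CPM in 16IC 1 to 3, against at most 0.241 CPM in EIC. Sums for 7 fibroblast genes were 11.4 to 36.1 CPM in 16IC and 12.2 to 106 CPM in EIC, for 9 basal genes 2.69 to 64.5 CPM in 16IC and 10.7 to 27.5 CPM in EIC, and for 3 adipocyte genes 0.857 to 2.66 CPM in 16IC and 4.57 to 44.3 CPM in EIC. In whole-culture RNA, fewer cells of a type and less RNA per cell cannot be told apart.

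Levels are given as CPM, counts per megacount of the library size scaled by TMM, and fold changes are 16IC over EIC from edgeR's quasi-likelihood test fitted on all 13698 genes. A gene is called when its Benjamini-Hochberg adjusted p is under 0.05, which held for 2.45% of all tested genes, and each SE belongs to the fitted log2 fold change. Of the 8 members 3 were called, Nkd2, Wnt5b and Fzd2. All 3 rose in 16IC, a direction in which 1.25% of tested genes were called. The groups did not overlap for 4 members, these 3 and Wnt4, as for 31.4% of all tested genes. Fzd1, Wnt10a, Wnt7b and Axin2 had overlapping groups and were not called. With 16IC 1 and 16IC 2, the most alike pair of lines, summed to 1 sample, an alternative chosen after seeing the data, no member was called (edgeR adjusted p = 0.147 for Nkd2, 0.158 for Wnt5b and 0.171 for Fzd2). The members' median log2 fold change was 0.46, against -0.0044 over all tested genes. The members were listed with earlier results of these data known, so these contrasts with all tested genes are a description only.

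**Figure D1:**
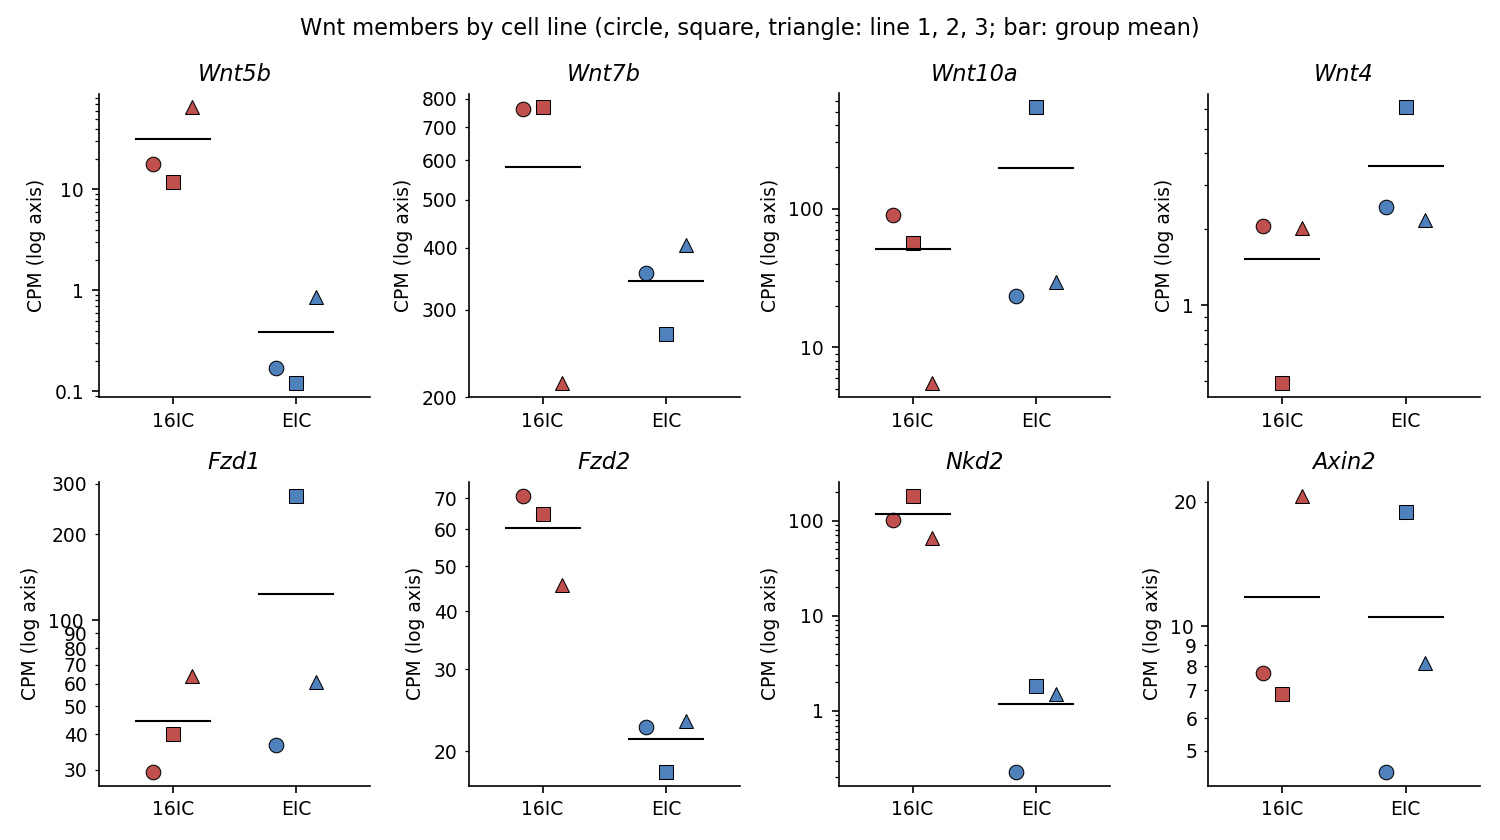
CPM of each of the 8 members (log axes that differ between panels) in the 16IC lines on the left and the EIC lines on the right, with 1 point per line and a bar at the group mean. Nkd2, Wnt5b and Fzd2 separate the groups upwards in 16IC, while EIC 2 is the highest line for Wnt10a, Wnt4 and Fzd1.

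Wnt5b, a ligand of the beta-catenin-independent branch (chromosome 6, 119432531 to 119544347, minus strand, mm10), was almost silent in EIC. It had 17.9, 11.7 and 65.0 CPM in 16IC 1 to 3, against 0.171, 0.120 and 0.870 CPM in EIC 1 to 3. Every 16IC line lay above every EIC line, by 13.5 to 540.3 times across the 9 pairs of lines, and 16IC 3 was the highest of all. These EIC levels rest on 3, 2 and 14 counts. With its minimum count of 10, the filter on low counts kept Wnt5b because of the 16IC lines, where it is high. Means were 31.5 ± 29.1 CPM for 16IC against 0.387 ± 0.419 CPM for EIC (SD, n = 3 each), and Wnt5b rose by a log2 fold change of 6.33 (SE 1.11, edgeR adjusted p = 0.0480). The call was lost without 16IC 1, 16IC 2, EIC 1, EIC 2 or EIC 3 (edgeR adjusted p = 0.166, 0.157, 0.169, 0.0838 and 0.151), with the robust fit (0.0511) and with limma-voom (0.0904). The log2 fold change was 5.24 without 16IC 3 and 7.67 without EIC 3.

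RefSeq gives 3 start sites for Wnt5b on GRCm38.p6, and the counts per gene do not resolve which was used. The core of the TCF/LEF site, CTTTGA on either strand, occurred in 16.0% of 32851 promoter windows of 250 bases before to 50 after a start. The longer form CTTTGAT, which contains that core, occurred in 3.73% of them. The start nearest the gene's 3′ end had both, beginning 71 bases before the start, and the windows of the other 2 starts had neither. Fzd1, which was not called, also had the core, 242 bases before its start and on the opposite strand. Wnt4, also not called, had none in its window. Wnt5b was the called ligand. The 250 bases before its start nearest the 3′ end are shown, picked because only that Wnt5b window held the core. They lie at chr6:119449387-119449636 on the minus strand, inside the Wnt5b gene and outside annotated exons, with the core in capitals.
Wnt5b: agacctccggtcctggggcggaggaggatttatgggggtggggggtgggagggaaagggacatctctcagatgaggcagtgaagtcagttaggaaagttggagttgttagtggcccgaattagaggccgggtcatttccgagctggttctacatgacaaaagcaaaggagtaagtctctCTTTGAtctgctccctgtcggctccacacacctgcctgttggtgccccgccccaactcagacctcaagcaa

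Wnt7b, a canonical ligand (chromosome 15, 85535437 to 85582473), was the most abundant Wnt transcript in 5 of the 6 lines. The 16IC lines had 763, 768 and 213 CPM, against 355, 268 and 405 CPM in EIC 1 to 3. 16IC 1 and 16IC 2 exceeded every EIC line and 16IC 3 lay below every EIC line, so the groups overlapped. Means were 581 ± 319 CPM for 16IC against 343 ± 69.1 CPM for EIC (SD, n = 3 each), and Wnt7b was not called (log2 fold change 0.76, SE 0.50, edgeR adjusted p = 0.418). Without 16IC 3 it was called higher (log2 fold change 1.16, edgeR adjusted p = 0.0283), in a fit that called 13.4% of the genes tested. The noncoding gene AU022754 on the opposite strand shares 324 exon bases with Wnt7b. It had 30 to 68 counts in 16IC and 15 to 33 in EIC, against at least 3285 for Wnt7b in any line.

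Wnt10a, another canonical ligand (chromosome 1, 74791516 to 74804179), varied most between lines of the same group. It had 90.4, 56.5 and 5.51 CPM in 16IC 1 to 3, against 23.7, 537 and 29.5 CPM in EIC 1 to 3. EIC 2 was 5.95 times the next line, and 16IC 3 was the lowest of all 6. Means were 50.8 ± 42.7 CPM for 16IC against 197 ± 295 CPM for EIC (SD, n = 3 each), with a log2 fold change of -1.95 (SE 1.47, edgeR adjusted p = 0.485) that did not pass the test. The sign rested on EIC 2, since without it the log2 fold change was 0.93 (edgeR adjusted p = 0.656). Without both EIC 2 and 16IC 3, an alternative chosen after seeing the data, Wnt10a was called higher in 16IC (log2 fold change 1.46, edgeR adjusted p = 0.0125), in a fit that called 29.1% of the genes tested.

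Wnt6, a ligand gene that lies 6194 bases upstream of Wnt10a on the same strand, was examined after its values were seen. It had 1, 0 and 1 counts in 16IC 1 to 3, against 0, 1104 and 1 in EIC 1 to 3, and so was detected at more than a trace in EIC 2 alone, at 66.4 CPM. It did not pass the filter on low counts and was not tested. Of the other protein-coding genes within 100000 bases of Wnt10a, Cdk5r2, a neuronal activator of CDK5, also had its highest level in EIC 2. It stood at 0 to 0.195 CPM in 16IC and at 0.285, 2.95 and 0.124 CPM in EIC 1 to 3. Ttll4 and Cyp27a1, on the other side of Wnt6, did not share this pattern, with 63.1 and 0.180 CPM in EIC 2, against at least 67.8 and 0.995 CPM in EIC 1 and EIC 3.

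Wnt4 (chromosome 4, 137277489 to 137299726) was low in all 6 lines. It had 2.05, 0.490 and 2.01 CPM in 16IC 1 to 3, against 2.45, 6.08 and 2.18 CPM in EIC 1 to 3. All 3 EIC lines lay above all 3 16IC lines, though 16IC 1 and EIC 3 differed by only 34 against 35 counts. Means were 1.52 ± 0.889 CPM for 16IC against 3.57 ± 2.18 CPM for EIC (SD, n = 3 each), and Wnt4 was not called (log2 fold change -1.23, SE 0.70, edgeR adjusted p = 0.352).

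Levels of different genes were compared per length, as counts per kilobase of gene length per megacount of scaled library. Summed over the 12 Wnt genes with a row, ligand transcripts reached 228, 211 and 75.2 of these units in 16IC 1 to 3, against 84.5, 305 and 97.4 in EIC 1 to 3. Wnt7b made up 68.4, 74.4 and 57.8% of that sum in 16IC 1 to 3, against 85.9, 17.97 and 84.8% in EIC 1 to 3. In 16IC 3 the second largest part was Wnt5b at 32.6%, with Wnt10a at 2.97%, while in EIC 2 Wnt10a held 71.4% and Wnt6 9.94%. The pair 16IC 1 and 16IC 2 also carried Wnt7a, a ligand close in sequence to Wnt7b, at 6.94 and 7.81%, against 0.0544% in 16IC 3 and at most 0.532% in EIC.

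**Figure D2:**
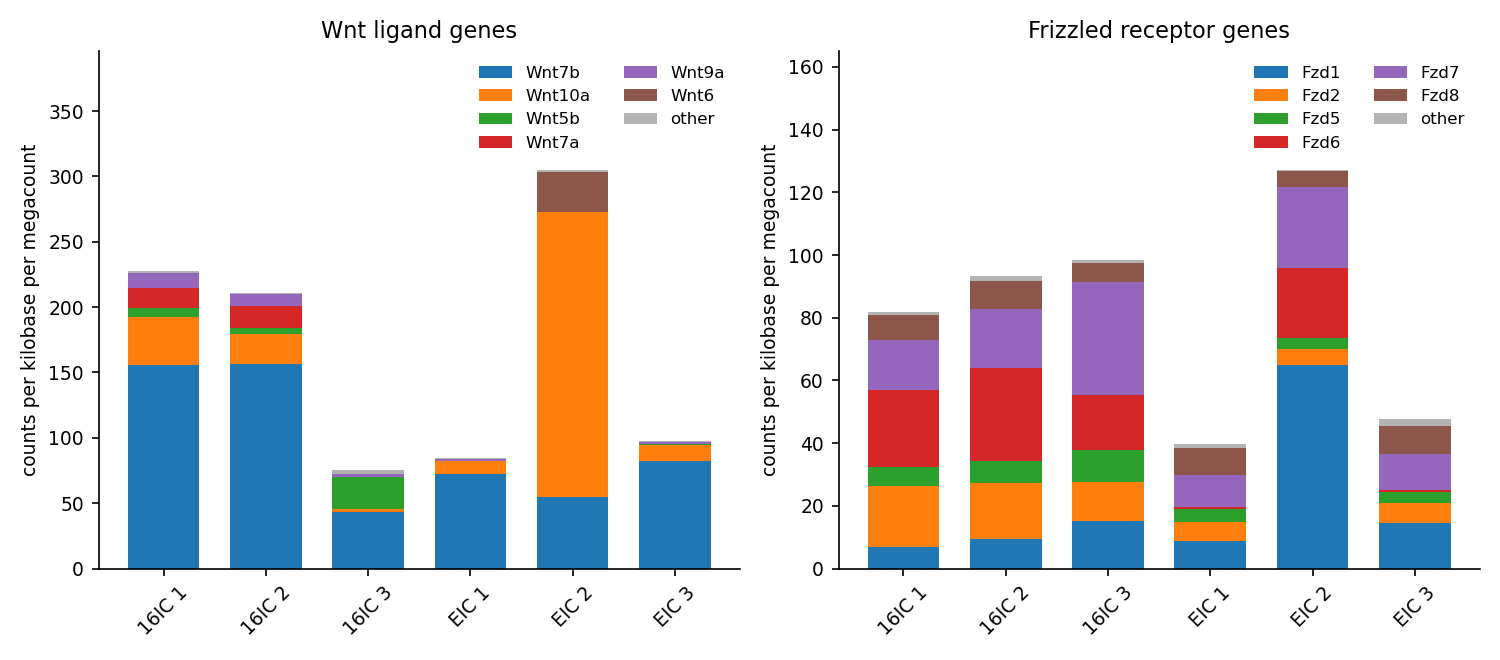
Counts per kilobase per megacount of the Wnt ligand genes (left) and the Frizzled genes (right) stacked for each line, with 16IC lines left of EIC lines. Wnt7b is the largest ligand block in every line but EIC 2, where Wnt10a holds 71.4%, and the Fzd2 block is larger in every 16IC line than in any EIC line.

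The list of all Wnt ligands had 7 tested genes, of which edgeR called 1, Wnt5b, against 2.45% of all tested genes. Of the 7, 5 had positive log2 fold changes (median 3.04, against -0.0044 over all tested genes). Another 5 ligands, Wnt2b, Wnt3, Wnt6, Wnt10b and Wnt11, did not pass the filter on low counts. The median leaves these out, among them Wnt6 with its 1104 counts in EIC 2. Wnt9a, a canonical ligand, had 38.3, 32.6 and 7.52 CPM in 16IC 1 to 3, against 3.99, 0.902 and 4.601 CPM in EIC 1 to 3. Its groups did not overlap, and it was not called (log2 fold change 3.04, SE 0.83, edgeR adjusted p = 0.106). Wnt7a had 50.1, 52.2 and 0.130 CPM in 16IC 1 to 3, against 1.43, 0 and 0.870 CPM in EIC 1 to 3 (edgeR adjusted p = 0.178). Wnt5a, the close relative of Wnt5b, stood at 2.23, 0.245 and 12.8 CPM in 16IC 1 to 3, against 0, 0.301 and 1.12 CPM in EIC 1 to 3 (edgeR adjusted p = 0.293). Like Wnt5b it was highest in 16IC 3. The 2 genes of Wnt secretion, Wls, which carries Wnt proteins to the surface, and Porcn, which attaches their lipid, were not called. Wls had 236, 262 and 489 CPM in 16IC 1 to 3, against 191, 208 and 207 CPM in EIC 1 to 3, groups that did not overlap (edgeR adjusted p = 0.246).

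Fzd2, a Frizzled receptor that binds Wnt5a and Wnt3a among others (chromosome 11, 102604396 to 102608058), was the member with the steadiest difference. It had 70.8, 64.6 and 45.4 CPM in 16IC 1 to 3, against 22.5, 18.045 and 23.2 CPM in EIC 1 to 3. Every 16IC line was above every EIC line, by 1.96 to 3.92 times, and within a group the highest line was 1.56 times the lowest in 16IC and 1.29 times in EIC. Means were 60.3 ± 13.2 CPM for 16IC against 21.3 ± 2.80 CPM for EIC (SD, n = 3 each), and Fzd2 rose by a log2 fold change of 1.503 (SE 0.24, edgeR adjusted p = 0.0423). Fzd2 was no longer called without 16IC 1, 16IC 2, EIC 1, EIC 2 or EIC 3 (edgeR adjusted p = 0.170, 0.172, 0.155, 0.0695 and 0.164) and with no filter on low counts (0.0590), while the log2 fold change stayed between 1.37 and 1.67 whichever line was left out.

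Fzd1, a receptor closely related to Fzd2 and Fzd7 (chromosome 5, 4753839 to 4758035), did not separate the groups. The 16IC lines had 29.5, 40.1 and 63.8 CPM, against 36.8, 273 and 60.9 CPM in EIC 1 to 3. EIC 2 was 4.27 times the next line, and without it the log2 fold change was -0.14, against -1.47 (SE 0.78, edgeR adjusted p = 0.321) with all lines. Means were 44.5 ± 17.6 CPM for 16IC against 124 ± 130 CPM for EIC (SD, n = 3 each).

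Per length, the 9 Frizzled genes with a row summed to 81.7, 93.2 and 98.3 counts per kilobase per megacount in 16IC 1 to 3, against 39.7, 127 and 47.7 in EIC 1 to 3. Fzd2 made up 23.7, 18.9 and 12.6% of the Frizzled sum in 16IC 1 to 3, against 15.5, 3.88 and 13.3% in EIC 1 to 3, so its share overlapped between groups although its level did not. Fzd1 held 8.61, 10.3 and 15.5% in 16IC 1 to 3, against 22.1, 51.1 and 30.4% in EIC 1 to 3. Other Frizzled genes were looked at after their values were seen. Fzd7 held 19.2 to 36.6% in 16IC and 20.4 to 25.6% in EIC. Fzd6 held 30.1, 31.8 and 18.1% in 16IC 1 to 3, against 1.91, 17.6 and 1.54% in EIC 1 to 3, and Fzd8 held 9.89, 9.32 and 6.03% in 16IC 1 to 3, against 21.3, 3.96 and 18.7% in EIC 1 to 3. Fzd6 had 119, 143 and 85.6 CPM in 16IC 1 to 3, against 3.65, 108 and 3.54 CPM in EIC 1 to 3, so that EIC 2 resembled the 16IC lines for this gene. It was not called (edgeR adjusted p = 0.527).

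Among 14 tested receptors and co-receptors edgeR called 2, Fzd2 and Fzd3, both higher, with a list median log2 fold change of 0.21. Over all tested genes 2.45% were called, and 1.25% were called higher. Fzd3, a receptor known for axon guidance and polarity, had 31, 23 and 35 counts in 16IC 1 to 3, against 0 in each EIC line. It passed the filter on low counts through the 16IC lines alone. Set against a floor of 3 counts over the EIC group it was at least 30.8-fold higher in 16IC (edgeR adjusted p = 0.0390). It too lost its call without 16IC 1, 16IC 2, EIC 1, EIC 2 or EIC 3 (edgeR adjusted p = 0.174, 0.171, 0.145, 0.0509 and 0.151). Fzd5 had 41.9, 49.4 and 69.9 CPM in 16IC 1 to 3, against 27.9, 24.6 and 24.1 CPM in EIC 1 to 3, without overlap and without a call (edgeR adjusted p = 0.0748). Ror1, a receptor kinase for Wnt5a, had 25.6, 23.3 and 44.4 CPM in 16IC 1 to 3, against 14.1, 0.120 and 11.6 CPM in EIC 1 to 3 (edgeR adjusted p = 0.418).

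Nkd2, whose product binds Dishevelled and dampens the signal inside the cell (chromosome 13, 73818534 to 73847631, minus strand), had the largest fold change among the members. It had 100.2, 182 and 65.3 CPM in 16IC 1 to 3, against 0.228, 1.80 and 1.49 CPM in EIC 1 to 3, where it rests on 4, 30 and 24 counts. The lowest 16IC line was 36.2 times the highest EIC line. With 4 counts in EIC 1 and a minimum count of 10, Nkd2 too passed the filter on low counts because of the 16IC lines. Means were 116 ± 59.8 CPM for 16IC against 1.17 ± 0.835 CPM for EIC (SD, n = 3 each), and Nkd2 rose by a log2 fold change of 6.62 (SE 0.84, edgeR adjusted p = 0.0360). The call was lost without 16IC 1, 16IC 2, EIC 1 or EIC 3 (edgeR adjusted p = 0.149, 0.154, 0.104 and 0.151) and held without 16IC 3 (0.0107) or EIC 2 (0.0490). In the authors' deposited table the log2 fold changes of Nkd2, Wnt5b and Fzd2 are 6.60, 6.31 and 1.48, with adjusted p of 5.95e-17, 1.14e-09 and 0.000137.

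Axin2, a scaffold of the beta-catenin destruction complex and a standard readout of canonical signalling (chromosome 11, 108920349 to 108950783), showed no such difference. Its levels were 7.71, 6.85 and 20.7 CPM in 16IC 1 to 3, against 4.45, 18.9 and 8.14 CPM in EIC 1 to 3. The highest line of each group, 16IC 3 and EIC 2, stood within 1.09 times of each other and well above the other lines. Means were 11.8 ± 7.75 CPM for 16IC against 10.5 ± 7.53 CPM for EIC (SD, n = 3 each). Axin2 was not called (log2 fold change 0.16, SE 0.68, edgeR adjusted p = 0.912), and the sign turned without 16IC 3 (-0.53), EIC 1 (-0.20) or EIC 3 (-0.0094). A predicted antisense gene, Gm11670, shares 209 exon bases with Axin2 and had at most 4 counts in any line.

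The promoters of the feedback inhibitor that rose and of the one that did not are set side by side, as 250 bases before the RefSeq start on GRCm38.p6. Nkd2 lies at chr13:73847632-73847881 on the minus strand and Axin2 at chr11:108920099-108920348 on the plus strand. Neither stretch, nor the 50 bases after the start, held CTTTGA on either strand, so no letters are in capitals. The G and C content was 58.4% for Nkd2 and 69.2% for Axin2. Absence of these letters in this window says nothing of sites elsewhere.
Nkd2: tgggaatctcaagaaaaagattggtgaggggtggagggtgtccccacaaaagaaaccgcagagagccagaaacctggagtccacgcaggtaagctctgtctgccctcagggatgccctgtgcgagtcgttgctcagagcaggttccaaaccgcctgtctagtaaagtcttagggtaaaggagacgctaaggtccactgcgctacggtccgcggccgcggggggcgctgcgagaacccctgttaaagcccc
Axin2: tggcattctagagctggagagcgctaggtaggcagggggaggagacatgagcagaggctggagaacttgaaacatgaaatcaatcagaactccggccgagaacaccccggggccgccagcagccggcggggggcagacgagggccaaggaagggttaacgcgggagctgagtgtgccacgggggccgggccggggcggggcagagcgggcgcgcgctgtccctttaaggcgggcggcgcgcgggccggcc

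The remaining genes of the pathway were counted by role. The lists were drawn up from general knowledge of the pathway, but with earlier results of these data known, so their counts are a description only. Over all tested genes 22.7% had an unadjusted p under 0.05 in edgeR, the share against which such counts stand. Of 17 cytoplasmic genes, including the destruction complex and Dishevelled, edgeR called 0 (4 had an unadjusted p under 0.05, near the 22.7% of all genes) and a median log2 fold change of 0.03. Apc2, a relative of Apc, had 4.397, 3.37 and 2.53 CPM in 16IC 1 to 3, against 0.627, 1.02 and 0.187 CPM in EIC 1 to 3 (edgeR adjusted p = 0.0968). Apc itself, the scaffold of that complex, averaged 144 ± 6.04 CPM in 16IC and 110 ± 4.42 CPM in EIC (edgeR adjusted p = 0.168). Amer1, which recruits Apc to the membrane, averaged 36.8 ± 11.9 CPM in 16IC and 21.2 ± 1.96 CPM in EIC (edgeR adjusted p = 0.174).

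Of 11 nuclear factors edgeR also called 0 (3 had an unadjusted p under 0.05, against 22.7% of all genes) and a median log2 fold change of 0.40. Tcf7l2, a DNA-binding partner of beta-catenin, came closest. It had 40.9, 46.7 and 31.6 CPM in 16IC 1 to 3, against 12.1, 18.4 and 12.6 CPM in EIC 1 to 3, without overlap (log2 fold change 1.47, SE 0.27, edgeR adjusted p = 0.0517). Bcl9l, a co-activator of beta-catenin, had 281, 235 and 340 CPM in 16IC 1 to 3, against 121, 159 and 127 CPM in EIC 1 to 3 (edgeR adjusted p = 0.0602). Tcf7 had 32.9, 38.9 and 8.89 CPM in 16IC 1 to 3, against 7.19, 4.93 and 9.70 CPM in EIC 1 to 3, where 16IC 3 lay among the EIC lines (edgeR adjusted p = 0.133).

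Of 11 tested target genes of the canonical branch, a list that holds Axin2, edgeR called 0 (5 had an unadjusted p under 0.05, against 22.7% of all genes). Of these 5, Tcf7, Sp5 and Rnf43 had positive log2 fold changes and Notum and Apcdd1 negative ones, and all but Sp5 are also counted in another list here. In this list 7 log2 fold changes were positive and 4 negative, with a median of 0.16. Sp5, a transcription factor induced by beta-catenin, was rare throughout, at 0.602, 0.612 and 1.43 CPM in 16IC 1 to 3, against 0.285, 0 and 0.124 CPM in EIC 1 to 3 (edgeR adjusted p = 0.178). Among 4 tested genes of the R-spondin axis, which sets how many Frizzled receptors stay at the surface, edgeR called 0 (1 had an unadjusted p under 0.05, near the 22.7% of all genes). That gene was Rnf43, a ligase that removes Frizzled receptors. It had 15.2, 9.97 and 20.7 CPM in 16IC 1 to 3, against 2.57, 0.0601 and 4.17 CPM in EIC 1 to 3, without overlap (edgeR adjusted p = 0.213). Lgr6, a receptor for R-spondins, ranged over 11.1 to 407 CPM in 16IC and 4.15 to 194 CPM in EIC, lowest in 16IC 3 and EIC 2 (edgeR adjusted p = 0.746).

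Of 4 tested extracellular inhibitors edgeR called 0 (2 had an unadjusted p under 0.05, against 22.7% of all genes) and a median log2 fold change of -0.85. Notum, a secreted enzyme that strips the lipid from Wnt proteins, had 3.43, 5.81 and 29.1 CPM in 16IC 1 to 3, against 27.0, 324 and 107 CPM in EIC 1 to 3 (log2 fold change -3.58, SE 1.19, edgeR adjusted p = 0.149). 16IC 3 lay just above EIC 1. Sfrp1, a decoy for Wnt ligands, had 127, 126 and 152 CPM in 16IC 1 to 3, against 96.9, 422 and 75.1 CPM in EIC 1 to 3 (edgeR adjusted p = 0.670). Apcdd1, a membrane inhibitor, had 8.25, 8.69 and 6.23 CPM in 16IC 1 to 3, against 19.9, 7.70 and 23.8 CPM in EIC 1 to 3 (edgeR adjusted p = 0.204). Another 10 genes of this list, among them Dkk1 and Wif1, had too few counts to be tested.

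**Figure D3:**
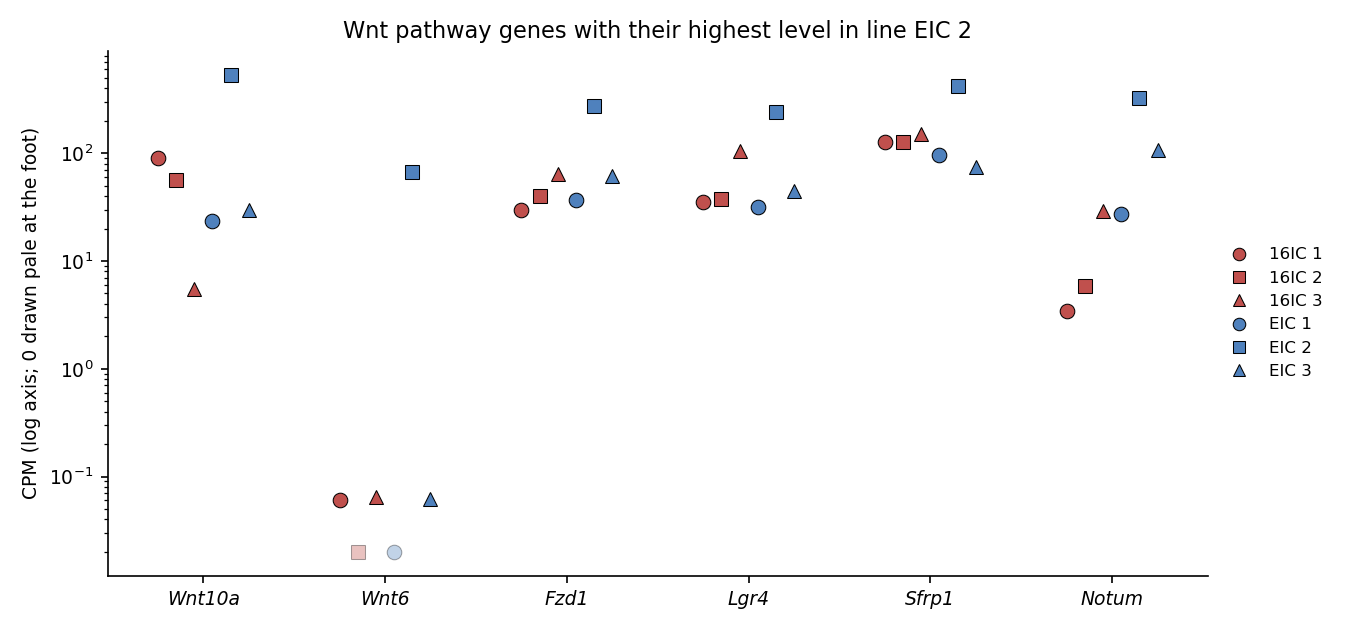
CPM (log axis) of 6 Wnt pathway genes whose highest level was in EIC 2, with 16IC lines in red left of EIC lines in blue and 1 point per line. Wnt6 stands at 66.4 CPM in EIC 2 and at no more than 0.0649 CPM elsewhere. The genes were picked for this pattern.

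The line EIC 2 was the highest of the 6 for Wnt10a, Wnt6, Fzd1, Wnt4, Notum, Sfrp1 and Lgr4, a receptor for R-spondins, and the second highest for Axin2. These genes were grouped here for this pattern, and the grouping is not complete. The share of all tested genes that were highest in EIC 2 was not counted. The pattern therefore does not set Wnt genes apart from other genes. Lgr4 had 35.4, 37.4 and 104 CPM in 16IC 1 to 3, against 31.4, 240 and 44.8 CPM in EIC 1 to 3 (edgeR adjusted p = 0.619). EIC 2 was also the line with the highest summed mesenchymal markers, 9256 CPM. Its luminal sum, 2657 CPM, was the lowest among the EIC lines through Krt8 and Krt18. The luminal marker Esr1 was also lower in EIC 2, at 3.37 CPM, against 10.2 and 10.4 CPM in EIC 1 and EIC 3. Cdh1, Krt19, Prlr and Gata3 of the same list were higher in EIC 2 than in EIC 1 and EIC 3. For Epcam and Kit, EIC 2 lay between EIC 1 and EIC 3. Cdh1 had 307 CPM in EIC 2, against 88.7 and 56.4 CPM in EIC 1 and EIC 3, and Krt19 had 198 CPM in EIC 2, against 7.70 and 10.1 CPM in EIC 1 and EIC 3. The part of these in the levels of Wnt10a, Fzd1 and the other genes was not tested.

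Of 11 tested genes of planar cell polarity, the branch that orients cells within a sheet, edgeR called 1 higher, Vangl2. In that direction 1.25% of all tested genes were called. The list's median log2 fold change was 0.21. Vangl2, a core polarity protein, had 19.5, 20.0 and 12.1 CPM in 16IC 1 to 3, against 3.42, 3.07 and 2.61 CPM in EIC 1 to 3 (log2 fold change 2.5, SE 0.33, edgeR adjusted p = 0.0368). It lost the call without 16IC 1, 16IC 2, EIC 1, EIC 2 or EIC 3 (edgeR adjusted p = 0.163, 0.164, 0.144, 0.0509 and 0.151). Celsr1, an atypical cadherin of the same system, had 246, 172 and 5.64 CPM in 16IC 1 to 3, against 0.171, 1.92 and 1.06 CPM in EIC 1 to 3 (log2 fold change 7.06, SE 1.59, edgeR adjusted p = 0.0748). Prickle1 had 0.120, 0.428 and 1.43 CPM in 16IC 1 to 3, against 1.83, 12.6 and 1.24 CPM in EIC 1 to 3 (edgeR adjusted p = 0.223).

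**Figure D4:**
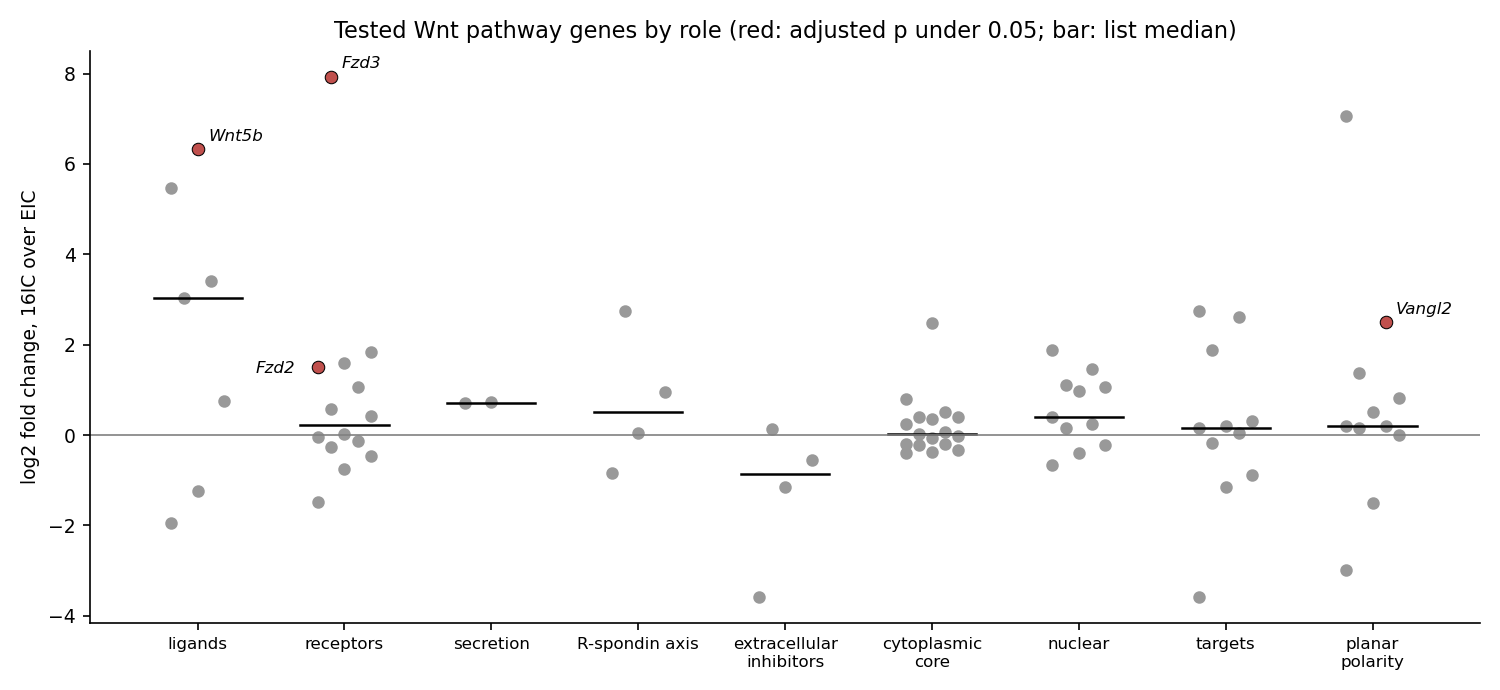
Log2 fold change, 16IC over EIC, of each tested Wnt pathway gene by role, with called genes in red and named and a bar at each list's median. Nkd2, which is in none of these lists, is not drawn. The called genes, Wnt5b, Fzd2, Fzd3 and Vangl2, are all higher in 16IC; the fitted value of Fzd3, with 0 counts in EIC, depends on the prior count and is no bound.

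The members differed in how they followed the lines. The root mean square difference between 2 genes' log2 CPM over the 6 lines, each gene centred on its own mean, was smallest between Wnt7b and Fzd2 (0.629) and between Fzd1 and Axin2 (0.732). It was 1.49 between Wnt5b and Nkd2, the members with the largest fold changes, and largest between Wnt5b and Wnt10a (4.47). These distances describe 6 points that share the same libraries. They are not scaled by each gene's spread, so genes that vary little lie near each other. Wnt7b and Fzd2 differed on 16IC 3, which lay below every EIC line for Wnt7b and above every EIC line for Fzd2. Candidates for the nearest gene were 11650 tested genes outside the Wnt lists, with a mean of at least 1 CPM and no Gm or Rik name. The nearest of them to Wnt7b was the luminal keratin gene Krt18, at 0.114. It had 1931, 1999 and 563 CPM in 16IC 1 to 3, against 1084, 661 and 1194 CPM in EIC 1 to 3, the same order of high and low lines as Wnt7b. Foxn3 was nearest to Fzd2 at 0.111, Pcsk6 to Nkd2 at 0.353 and Unc5cl to Wnt5b at 0.443. Pcsk6, a proprotein convertase, had 154, 164 and 66.4 CPM in 16IC 1 to 3, against 0.171, 1.504 and 2.18 CPM in EIC 1 to 3. Zfp334 was nearest to Fzd1 at 0.306, Irgm1 to Wnt4 at 0.342, Aamdc to Axin2 at 0.165 and Ndst3 to Wnt10a at 0.6.

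**Figure D5:**
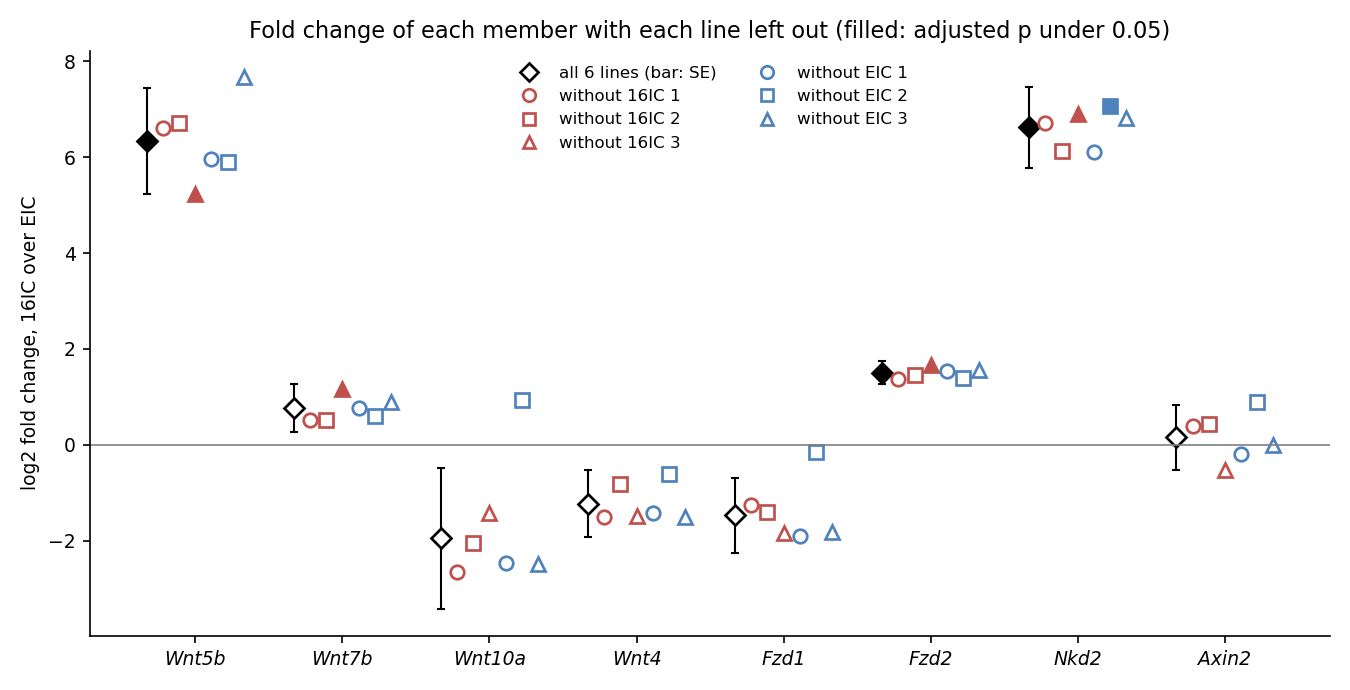
Log2 fold change, 16IC over EIC, of each member with all 6 lines (black, with SE) and with each line left out in turn (red for 16IC lines, blue for EIC lines), filled where edgeR's adjusted p was under 0.05. Wnt5b, Fzd2 and Nkd2 stay above 0 in all 6 leave-outs, and Wnt10a changes sign without EIC 2.

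The 3 called members were compared with the marker sums of the lines. The summed mesenchymal markers did not overlap, with 260 to 3995 CPM in 16IC and 4594 to 9256 CPM in EIC. Vim gave the largest part. Of the 10 markers 5 had groups without overlap (Vim, Zeb2, Twist1, Sparc and S100a4), against 31.4% of all tested genes. Fn1, Zeb1, Snai1, Snai2 and Cdh2 overlapped. The summed luminal markers overlapped, with 1732 to 6951 CPM in 16IC and 2657 to 3204 CPM in EIC. Yet 4 of the 9 tested luminal markers had groups without overlap, Epcam, Elf5 and Prlr higher in 16IC and Krt19 lower. Of 10 tested mesenchymal markers edgeR called 0 (3 had an unadjusted p under 0.05, against 22.7% of all genes), and 9 of 10 log2 fold changes were negative. Of 9 tested luminal markers it called 1, Elf5, higher, against 2.45% of all tested genes called, and 5 had an unadjusted p under 0.05. Elf5 had 1, 0 and 2 counts in EIC 1 to 3 and passed the filter on low counts through the 16IC lines alone. 16IC 3 was closest to EIC in its mesenchymal sum, and had the lowest 16IC levels of Nkd2 and Fzd2 but the highest of Wnt5b. The part of cell state in these differences was not tested.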

How the data were processed

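Tools listed in the submitters' processing notes are HTSeq, STAR, Trimmomatic, limma and edgeR, with builds mm10 and GRCm38. No role, version or setting, strandedness or annotation is given in the sources used here. Values per gene and line are whole read counts, as deposited by the authors. The deposited table also gives the authors' log2 fold change and adjusted p-value of 16IC over EIC, whose tool is not stated; these log2 fold changes lay within 0.01 of those of DESeq2 for 99.98% of genes. Gene positions equalled those of GENCODE M21 for 97.1% of shared identifiers and for all 8 members.

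From the counts, genes were filtered with filterByExpr by group (minimum count 10), libraries were scaled by TMM, and 16IC was tested against EIC with the quasi-likelihood test of edgeR (version 4.0.16 under R 4.3.3) over all 13698 remaining genes, with Benjamini-Hochberg adjustment. SE is the absolute log2 fold change over the square root of the test's F. Group means carry the SD over 3 lines. The test was also tested on simulated data. A floor of 3 counts over a group stands for 0 and covers counting error only. Per-length levels use the gene length in the table. Promoters are RefSeq's on GRCm38.p6 and were matched by symbol for 5 of the 8 members. Log2 CPM for distances used a prior count of 2. Alternatives were other scaling factors, other filters, the robust fit, limma-voom (limma 3.58.1), DESeq2 1.42.0, other thresholds and leaving out lines.

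The members and the lists were chosen with earlier results of these data known. All members were named, with up to 3 other genes of each Wnt list by smallest p and the genes nearest to each member in pattern; other genes are said to be chosen after their values were seen.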

Additional observations from a re-analysis of the deposited data

How the results depend on the processing

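Calls depended on the lines and on the tool. With all lines edgeR called 335 genes, 3 of them members. It called 0 to 1913 genes and 0 to 4 members when 1 line was left out. The 4 were reached without 16IC 3, with Wnt7b added, and 0 members were called without 16IC 1, 16IC 2, EIC 1 or EIC 3, where 3, 3, 4 and 3 members had an unadjusted p under 0.05. Those fits called 5, 0, 0 and 0 of all genes, with 2248, 2251, 2627 and 2341 at an unadjusted p under 0.05. With no filter on low counts 223 genes were called, with DESeq2 2032, at an adjusted p under 0.1 1184 and at an adjusted p under 0.01 0, where 0 members remained called and 3 had an unadjusted p under 0.05 in edgeR. 2 alternatives were chosen after seeing the data. Without both 16IC 3 and EIC 2 edgeR called 4092 genes, 29.1% of those tested, and 5 members, Wnt10a and Wnt7b added. With 16IC 1 and 16IC 2 summed to 1 sample it called 0 genes, with 2253 at an unadjusted p under 0.05, and 0 members, with 3. The log2 fold change of Wnt10a was -2.66 to 0.93 over the leave-outs and 1.46 without both 16IC 3 and EIC 2, and that of Axin2 -0.53 to 0.89 over the leave-outs. The other 6 members kept their direction under every alternative run. The cause of these changes was not tested. No paired analysis was possible because nothing in the labels pairs a 16IC line with an EIC line. Wnt5b and Nkd2 in EIC rest on at most 30 counts a line, so their fold changes are less precise than their direction.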
